A study of Mus musculus with 24 samples.

Results

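The white adipocyte genes described here are 10 genes that mark the mature fat cell: Pparg, Plin1, Cidec, Pnpla2, Lpl, Fabp4, Adipoq, Lep, Retn and Cfd. They were chosen by name out of 34797 gene and transcript names on the array, and every probe annotated to one of them was taken, which gave 13 of 55681 probes. Mammary gland RNA of 24 female mice was profiled, 1 mouse per array, in 8 groups of 3. BALB/c mice were irradiated whole body with 10 cGy of X-rays (low-dose ionizing radiation, LDIR) or sham-treated at 8 to 9 weeks of age, and tissue was collected after 2, 4 or 8 weeks. SPRET/EiJ mice, an inbred strain derived from the wild species Mus spretus, received the same dose or sham treatment at the same age, and tissue was collected after 4 weeks. BALB/c mice carry variants of the DNA repair gene Prkdc, in LDIR and sham groups alike. The whole gland was used, so every value is for bulk tissue. Each of the 24 arrays showed a signal well above background for all 13 probes, so the markers of white fat were present in every sample. Levels are log2 intensities after subtraction of the array's 75th percentile, on which scale a difference of 1 is a 2-fold difference.

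White adipocytes fill the mammary fat pad, in which the ducts of the gland grow. They store triglyceride in a single large droplet and release fatty acids from it when hormones call for them. They also secrete hormones and other proteins that act within the gland and in distant organs.

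Within the list, Pparg encodes the nuclear receptor that drives adipocyte differentiation. Plin1 and Cidec encode proteins of the lipid droplet surface, where perilipin restrains lipolysis and Cidec promotes droplet growth, and Pnpla2 encodes the lipase that starts triglyceride breakdown. Lpl encodes the lipase that frees fatty acids from circulating lipoproteins, and Fabp4 encodes a fatty acid carrier of the cytoplasm. Adipoq (adiponectin), Lep (leptin), Retn (resistin) and Cfd (adipsin, a complement protease) encode secreted products. Lep and Pparg were each printed on 10 spots of the array and the other probes on 1 spot. Cidec, Lpl and Retn were each measured by a pair of probes, and unless stated the brighter probe is given.

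The probes below are shown because the difference between strains depended on them. All are 60 bases long, given 5′ to 3′ as in the files, with positions in the mm9 build. Those of Cidec and Lpl that begin at bases 552 and 1340 of their transcripts are printed whole, and of the more 3′ probes only the first 30 bases are given. The probe of Plin1 begins at base 1794 of its transcript (chr7:86866112-86866171, minus strand), and the brighter probes of Cidec and Lpl at bases 1642 and 3484.

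Plin1, first 30 bases: catcagaaccaatttttaaggggcaccaga
Cidec, brighter probe (chr6:113374630-113374689, minus strand), first 30 bases: tttttccacgaatgagtgaatggtattaga
Cidec, dimmer probe (chr6:113378116-113378175, minus strand): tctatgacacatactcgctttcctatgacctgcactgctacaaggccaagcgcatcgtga
Lpl, brighter probe (chr8:71430267-71430326, plus strand), first 30 bases: gaacaccaacccacatgcaaaaccccacaa
Lpl, dimmer probe (chr8:71425050-71425109, plus strand): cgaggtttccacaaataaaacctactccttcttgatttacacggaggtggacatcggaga

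The 250 bases before the start sites of Plin1 and Lep are shown because these were the members with the largest differences between sham mice of the strains. They come from RefSeq (GRCm38.p6), which had promoter windows for 8 of the 10 members, and are reference sequence, not that of BALB/c or SPRET/EiJ. Capitals mark TTGCNNAA on either strand, a short form of the site of C/EBP factors, which act with Pparg in adipocyte differentiation. It was found 2 times before Plin1, beginning 187 and 58 bases before the start site, and once before Lep, beginning 55 bases before it. Of all 32851 RefSeq windows of this length, 9.56% held it, and 4 of the 8 members did in at least 1 window, Cidec and Pparg being the others. Cidec and Pparg each had more than 1 window, so the count of members and the share of windows are not on the same footing. TATAAA, searched on both strands in the same way, was in 12.4% of all windows and, among the 8 members, in a window of Pparg alone. A match is a description of the letters and not evidence of a bound site.

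Plin1 (chr7:79732777-79733026, minus strand): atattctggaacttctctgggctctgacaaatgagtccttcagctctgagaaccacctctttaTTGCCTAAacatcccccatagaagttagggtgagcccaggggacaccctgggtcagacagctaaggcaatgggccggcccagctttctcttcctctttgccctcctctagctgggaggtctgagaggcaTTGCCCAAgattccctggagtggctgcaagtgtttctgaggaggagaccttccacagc
Lep (chr6:29059971-29060220, plus strand): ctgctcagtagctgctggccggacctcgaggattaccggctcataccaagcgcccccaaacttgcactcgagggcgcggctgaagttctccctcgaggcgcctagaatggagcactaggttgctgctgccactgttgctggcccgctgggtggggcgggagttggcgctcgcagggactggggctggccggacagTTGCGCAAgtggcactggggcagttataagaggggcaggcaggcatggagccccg

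Markers of other cells moved between arrays, and 3 arrays stood apart. For 10 lymphocyte markers the mean level was 3.68 in replicate A of the BALB/c sham mice at 8 weeks, 4.12 in replicate B of the BALB/c LDIR mice at 8 weeks and 3.64 in replicate A of the SPRET/EiJ LDIR mice. On the other 21 arrays it lay between -1.85 and -0.84. Ms4a1, a defining marker of B cells, was at 4.08 or above on these 3 arrays and at or below -2.72 elsewhere, and above background on 12 of the other 21 arrays. On the same 3 arrays all 10 white adipocyte genes were below the mean of their group, by -0.60, -0.85 and -1.12 on average. All 10 were also below it, by less, on some BALB/c arrays without high lymphocyte markers. These were LDIR replicate A (-0.30) and sham replicate A (-0.18) at 2 weeks, and sham replicate C (-0.22) and LDIR replicate A (-0.48) at 4 weeks. The mean of 8 skeletal muscle markers varied from -4.41 to 4.21, and was highest in BALB/c 8-week LDIR replicate C. In bulk tissue fewer adipocytes and less RNA per adipocyte cannot be told apart, and the part of lymphocyte or muscle RNA in the results was not tested. Differences between groups that hold any of the 3 arrays, and correlations and spreads over them, are therefore also given without them in most cases.

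**Figure D1:**
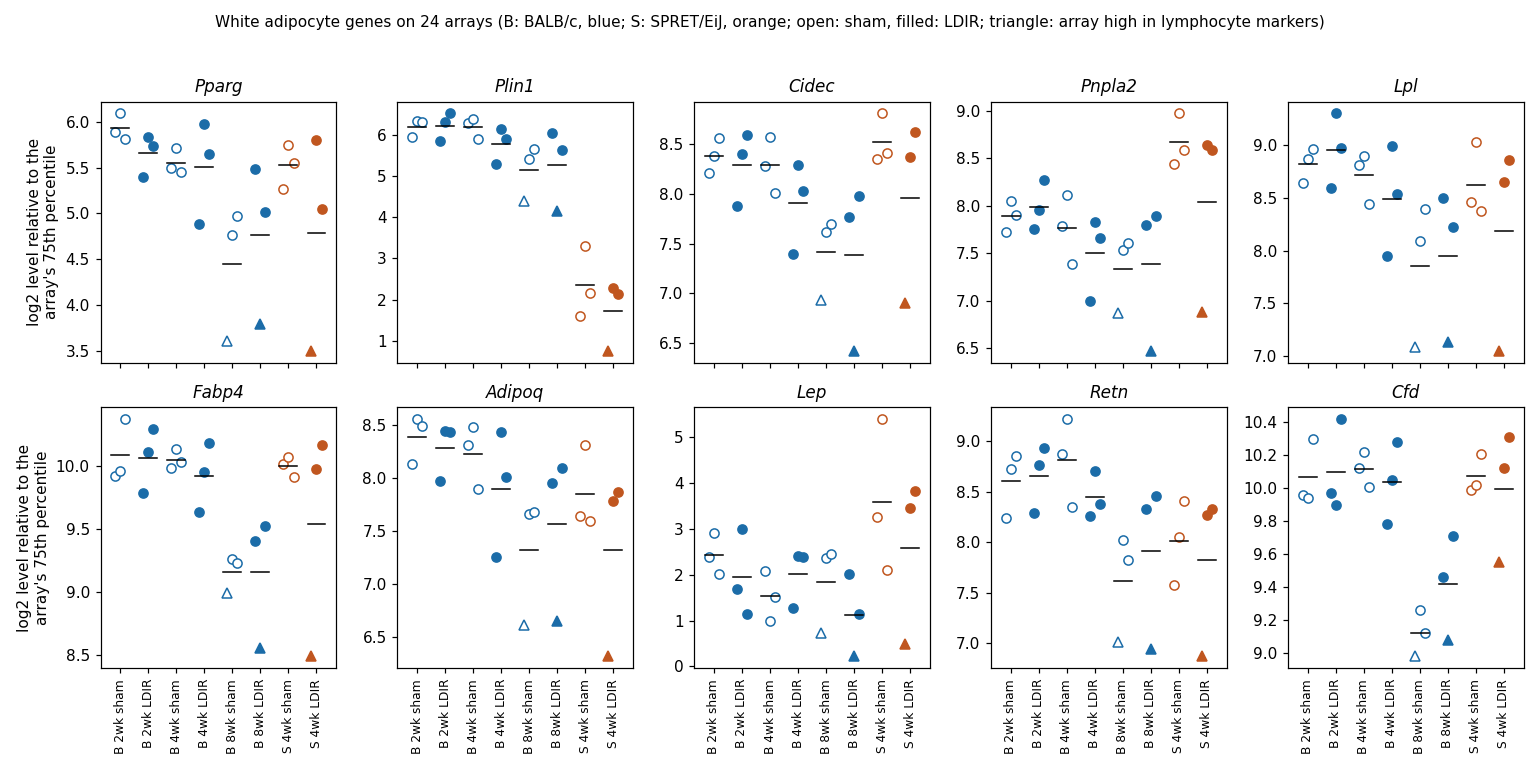
Level of each white adipocyte gene on each of the 24 arrays, as log2 relative to the array's 75th percentile (y axis, a scale of its own for each gene), by group (x axis). Points are arrays, lines are group means, open points are sham and filled points LDIR, and triangles mark the 3 arrays high in lymphocyte markers; Plin1 was at or below 3.31 on every SPRET/EiJ array and at or above 4.16 on every BALB/c array.

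The strains were compared at 4 weeks, where both had sham and LDIR groups. Plin1 was the member that differed, at about 14.3-fold more signal in sham BALB/c than in sham SPRET/EiJ. In sham BALB/c its levels were 6.30, 6.40 and 5.90, and in sham SPRET/EiJ 1.61, 3.31 and 2.15. Every BALB/c value was thus well above every SPRET/EiJ value, and the spread within SPRET/EiJ was wider. The difference was 3.84 (standard error 0.44, 95% interval 2.78 to 4.91, adjusted p = 0.00243 by limma, where all adjusted p-values are Benjamini-Hochberg values over every probe tested). After LDIR the levels were 5.31, 6.16 and 5.90 in BALB/c against 0.75, 2.27 and 2.14 in SPRET/EiJ. That difference was 4.07 (standard error 0.47, adjusted p = 0.00366 by limma), and 3.58 (standard error 0.29, adjusted p = 0.00297) without SPRET/EiJ LDIR replicate A, the array high in lymphocyte markers. Plin1 was therefore lower in SPRET/EiJ in mice of both treatments.

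Of the 10 members, 1 passed the thresholds used between strains (unadjusted p under 0.001 and over 1.5-fold) in sham mice, where 8.89% of all probes passed, and 1 after LDIR, where 5.67% passed. The sham arrays of BALB/c lay on slides 1 and 2 of the 3 array slides and all SPRET/EiJ arrays on slide 3. With slide as a random block the sham difference of Plin1 was 3.85 (adjusted p = 0.0013 by limma). With slide as a fixed block over all 24 arrays it was 2.38 (standard error 1.01, adjusted p = 0.277 by limma) in sham mice and 2.91 (standard error 0.89, adjusted p = 0.091) after LDIR, and neither passed the thresholds. In that fit, slide 3 is set against the others through BALB/c 8-week LDIR replicates B and C, of which B was the BALB/c array with the lowest Plin1 level, 4.16. In the methods' t-test Plin1 did not pass the thresholds either. The level of Plin1 minus the mean of the other 9 members on the same array lay between -1.98 and -1.33 in BALB/c and between -6.06 and -4.96 in SPRET/EiJ. Across all 18 BALB/c arrays Plin1 ranged from 4.16 to 6.53 with a median of 5.92, and across the 6 SPRET/EiJ arrays from 0.75 to 3.31 with a median of 2.14. Each of the other 9 members overlapped between the strains over these arrays, again a description with no share over all probes beside it. Plin1 had 1 probe, no SPRET/EiJ sequence was used here, and how well the probe matches that strain's transcript was not tested.

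Other members differed less between the strains, and none of them passed the threshold. Lep was at 2.08, 1.00 and 1.52 in sham BALB/c and at 3.25, 5.40 and 2.10 in sham SPRET/EiJ. The groups did not overlap, but by a margin of little more than the rounding of the values, and SPRET/EiJ replicate B lay far above its group. The difference was -2.05 (standard error 0.82, adjusted p = 0.144 by limma) in sham mice and -0.58 (standard error 0.89, adjusted p = 0.714) after LDIR. Pnpla2 was at 7.78, 8.11 and 7.39 in sham BALB/c and at 8.44, 8.97 and 8.59 in sham SPRET/EiJ, which did not overlap. Its difference was -0.91 (standard error 0.25, adjusted p = 0.0538 by limma) and -0.54 (standard error 0.52, adjusted p = 0.573) after LDIR. Retn had a sham difference of 0.80 (standard error 0.31, adjusted p = 0.137 by limma), with overlapping groups. The remaining 6 members, Adipoq, Cidec, Lpl, Fabp4, Cfd and Pparg, had sham differences from -0.23 (Cidec) to 0.38 (Adipoq). For Fabp4 the 95% interval was -0.32 to 0.42, for Cfd -0.35 to 0.43 and for Pparg -0.43 to 0.50. The median of the 10 differences was 0.04 in sham mice and 0.34 after LDIR, against -0.08 and -0.06 over all probes. Without SPRET/EiJ LDIR replicate A the median after LDIR was -0.16. The difference of Lep was then -1.63 (standard error 0.41, adjusted p = 0.0499 by limma) and that of Pnpla2 -1.11 (standard error 0.29, adjusted p = 0.0562). On the 5 arrays left 4 members did not overlap, namely Lep, Pnpla2, Plin1 and Cidec (-0.59, standard error 0.31, adjusted p = 0.248 by limma). Plin1 alone passed the thresholds, as 7.9% of all probes did.

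For Cidec and Lpl the answer depended on the probe. The dimmer probe of Cidec was at 5.79, 5.31 and 5.02 in sham BALB/c and at 6.77, 6.52 and 6.41 in sham SPRET/EiJ, with no overlap. Its difference of -1.19 (standard error 0.24, adjusted p = 0.02 by limma) stood beside -0.23 (standard error 0.22, adjusted p = 0.539) for the brighter probe. For Lpl the dimmer probe was at 6.28, 5.49 and 5.77 in sham BALB/c and at 6.66, 6.86 and 6.31 in sham SPRET/EiJ. These groups came close but did not overlap, and the difference was -0.76 (standard error 0.27, adjusted p = 0.1 by limma) beside 0.09 (standard error 0.24, adjusted p = 0.818) for the brighter probe. The gap between the probes of Cidec was 2.91 ± 0.39 (SD, n = 3) in sham BALB/c and 1.96 ± 0.36 (SD, n = 3) in sham SPRET/EiJ, and that of Lpl 2.87 ± 0.47 (SD, n = 3) and 2.01 ± 0.19 (SD, n = 3). Averaged over sham and LDIR at 4 weeks, the gap was larger in BALB/c by 0.96 for Cidec and by 0.88 for Lpl (two-sided exact permutation within treatment, p = 0.005 for each, the smallest that the 400 permutations can give, adjusted p = 0.0075 over the 3 pairs of probes). For Retn the gaps were 0.14 ± 0.09 (SD, n = 3) and 0.28 ± 0.06 (SD, n = 3), a difference of -0.17 (exact permutation p = 0.01, adjusted p = 0.01), and both of its probes were higher in BALB/c, by 0.80 and 0.94. The probes of a pair thus did not give the same difference between strains at 4 weeks. Over all arrays the gap of Cidec was 1.91 to 3.25 in the 18 BALB/c and 1.58 to 2.30 in the 6 SPRET/EiJ arrays, which overlapped, and that of Lpl was 2.54 to 3.41 and 1.81 to 2.17, which did not. On slide 3, which held all SPRET/EiJ arrays and BALB/c 8-week LDIR replicates B and C, these 2 BALB/c arrays had gaps of 2.24 and 2.32 for Cidec, next to the highest SPRET/EiJ values, and of 3.15 and 2.84 for Lpl. The 8-week BALB/c arrays on slide 2 had Cidec gaps of 2.55, 2.13 and 1.91 in sham mice and 2.19 in LDIR replicate A. At 4 weeks each strain lay on slides of its own, so slide and strain cannot be told apart in the tests of the gaps.

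**Figure D2:**
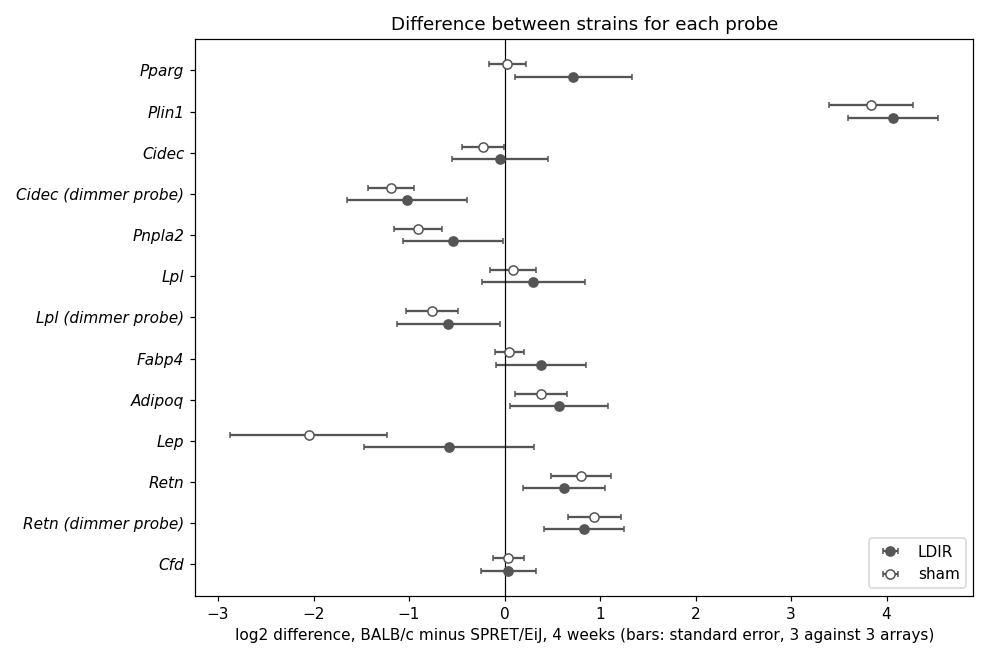
Difference in log2 level between BALB/c and SPRET/EiJ at 4 weeks (x axis) for each of the 13 probes (y axis), in sham (open) and LDIR (filled) mice; points are differences of group means of 3 arrays each and bars are standard errors. Plin1 lies at 3.84 and 4.07, the dimmer probes of Cidec and Lpl lie left of the brighter ones, and the other members lie closer to 0 or have wide bars.

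The related genes of fat metabolism were counted in sham mice, where 8.89% of all probes passed the thresholds, 5.36% higher in BALB/c and 3.53% lower. Few of them passed, in either direction. Of 14 genes of the lipid droplet and lipolysis, 1 was higher in BALB/c and 1 lower: Adrb3, the adrenergic receptor that starts lipolysis, by 1.75 (standard error 0.23, adjusted p = 0.00396 by limma), and Plin5, a perilipin of oxidative tissues, by -3.60 (standard error 0.34, adjusted p = 0.00113). Of 16 genes of fatty acid uptake and triglyceride synthesis, 1 was lower, Fabp5, another fatty acid carrier, by -1.99 (standard error 0.28, adjusted p = 0.0052 by limma). Of 14 adipokines and their receptors, 2 were lower, among them Nampt, an enzyme of NAD synthesis that is also secreted, by -1.48 (standard error 0.24, adjusted p = 0.00845 by limma). Of 14 adipogenic transcription factors none passed. The medians of these lists were -0.23, -0.64, -0.72 and -0.05. Of 12 epithelial markers, with a median difference of 1.56, 1 was higher in BALB/c past the thresholds, Acta2 of myoepithelium by 3.68, and the part of this in the differences of the fat genes was not tested.

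LDIR was compared with sham within each strain and time, to see whether the fat pad's genes responded to the dose. None of the 10 members passed the thresholds used here (unadjusted p under 0.05 and over 1.5-fold) in BALB/c mice 2 weeks after the dose, where 3.05% of all probes did, 4 weeks after it (4.83%) or 8 weeks after it (1.92%), or in SPRET/EiJ mice (2.21%). None did in the mean over the 3 times in BALB/c either (1.19%). None of the members reached an unadjusted p under 0.05 by limma in these comparisons, the smallest being 0.165, 0.178, 0.296, 0.232 and 0.456, and none passed in the methods' t-test in the first 4 of them, the mean over times having no such test. The 10 members had median differences of 0.00, -0.24 and 0.11 at the 3 BALB/c times, against -0.02, 0.02 and -0.14 over all probes, and ranged from -0.49 to 0.13, from -0.41 to 0.48 and from -0.72 to 0.32. For the 4-week BALB/c comparison, slide 2 carried every LDIR array but, of the sham arrays, replicate C alone. Against that array the LDIR mean was higher for 6 members and lower for 3, with no test. The median was then 0.04 and the range -0.11 to 0.49. On sham replicate C all 10 members were below their group mean, and the part of slide in the -0.24 was not tested. In SPRET/EiJ the median was -0.54, against 0.03 over all probes. The LDIR and sham groups overlapped for each member in each of these comparisons, a description with no share over all probes beside it.

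Adipoq, the hormone whose blood level falls in obesity, was at 8.13, 8.56 and 8.49 in sham and at 7.97, 8.45 and 8.44 after LDIR at 2 weeks. At 4 weeks it was at 8.31, 8.48 and 7.90 in sham and at 7.26, 8.44 and 8.01 after LDIR, and at 8 weeks at 6.62, 7.66 and 7.68 in sham and at 7.96, 6.65 and 8.10 after LDIR. In SPRET/EiJ it was at 7.64, 8.31 and 7.60 in sham and at 6.32, 7.79 and 7.87 after LDIR. The 3 lowest values were those of the arrays high in lymphocyte markers. The 95% intervals for Adipoq were -0.60 to 0.40, -1.13 to 0.48, -1.01 to 1.51 and -1.64 to 0.60, so a 2-fold change was outside the interval at 2 weeks and inside it in the other comparisons.

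Lep had the widest interval in each of these 4 comparisons, and Cfd the narrowest in 3. For Lep the interval was -1.70 to 0.72 at 2 weeks and -3.60 to 1.63 in SPRET/EiJ, and for Cfd it was -0.46 to 0.52 and -0.75 to 0.59. In SPRET/EiJ all 10 members were lower after LDIR, by -0.99 (Lep) to -0.08 (Cfd). Without replicate A, which was high in lymphocyte markers, 5 were lower and 5 higher, with a median of 0.02 and a range of -0.15 to 0.29. In BALB/c at 8 weeks, leaving out the array of each group that was high in those markers gave 9 members higher and Lep lower (-0.83, standard error 0.35, adjusted p = 0.968 by limma), with a median of 0.29. Of the 10 members 8 then did not overlap between groups of 2 arrays, and neither did 32.1% of all probes; none passed the thresholds, and 4.35% of all probes did. Slide 2 held all 3 sham arrays of that time and LDIR replicate A. This 1 LDIR array was higher than the mean of the sham arrays for all 10 members, with no test. The median was 0.55 and the range 0.16 to 1.04. That mean included sham replicate A, high in lymphocyte markers, on which all 10 members were below their group mean. Lep was at 2.01 on the LDIR array, below sham replicates B and C (2.36 and 2.46), while the other members lay above both. In SPRET/EiJ without replicate A none passed either, where 3.77% of all probes did. The change after LDIR did not differ between strains for any member past the thresholds (0 of 10, against 3.59% of all probes), and the largest difference of changes was 1.47 for Lep (standard error 1.30, adjusted p = 0.955 by limma). Without SPRET/EiJ LDIR replicate A none passed either, where 4.56% of all probes did, 8 of the 10 differences of changes were below 0, at a median of -0.24, and they ranged from -0.66 for Retn (standard error 0.41, adjusted p = 0.902 by limma) to 0.42 for Lep (standard error 1.06, adjusted p = 0.977).

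The related lists were counted in the same comparisons. At 4 weeks in BALB/c 3.39% of all probes passed as higher and 1.44% as lower. At 4 weeks in BALB/c, where the median of the members was -0.24, 3 of 9 brown adipocyte genes were lower after LDIR, at a median of -0.70, with Elovl3, a fatty acid elongase, at -2.52 (standard error 0.63, adjusted p = 0.687 by limma) and Cidea, a droplet protein, at -1.88 (standard error 0.55, adjusted p = 0.749). Of 16 genes of fatty acid uptake and triglyceride synthesis 2 were lower, Pck1, an enzyme of glyceroneogenesis, at -0.72 (standard error 0.28, adjusted p = 0.775 by limma) and Slc27a1, a fatty acid transporter, at -0.59 (standard error 0.20, adjusted p = 0.775). Of 14 genes of the lipid droplet and lipolysis 1 was lower, hormone-sensitive lipase Lipe at -0.62 (standard error 0.22, adjusted p = 0.775 by limma). None of 14 adipogenic transcription factors passed, and of 14 adipokines and receptors 2 were higher and 1 lower. Of 7 macrophage markers 3 were higher, at a median of 0.77, among them Cd68 at 0.81 (standard error 0.22, adjusted p = 0.711 by limma) and Mrc1 at 0.77 (standard error 0.23, adjusted p = 0.763). The epithelial list had 2 of 12 lower, milk proteins 2 of 6 higher and fibroblast and preadipocyte markers 2 of 8 higher. The part of these cells in the values of the white adipocyte genes was not tested. Sham and LDIR arrays lay largely on different slides at 4 weeks, and the part of slide in the differences of these lists was not tested.

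In the other LDIR comparisons few genes of these lists passed. Over all probes in BALB/c 2.08% passed as higher and 0.968% as lower at 2 weeks, and 0.169% and 1.75% at 8 weeks. At 2 weeks 2 of 9 brown adipocyte genes were lower, Dio2, a deiodinase, at -1.20 (standard error 0.46, adjusted p = 0.869 by limma) and Prdm16, a factor of brown fat identity, at -0.72 (standard error 0.19, adjusted p = 0.869), and none of the other 4 fat lists had a gene that passed. At 8 weeks 1 adipogenic factor was higher, Ppargc1b at 0.68 (standard error 0.27, adjusted p = 1 by limma), and 1 of the adipokines and receptors was lower. Without the arrays high in lymphocyte markers, 2 of 9 brown adipocyte genes were higher at 8 weeks. So was 1 gene each of the adipogenic, droplet and adipokine lists. None of the fat lists had a gene that was lower, while 1 of 7 macrophage markers was lower. Of all probes 4.35% then passed, 2.09% as lower. In SPRET/EiJ no gene of the fat lists passed, with or without LDIR replicate A.

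**Figure D3:**
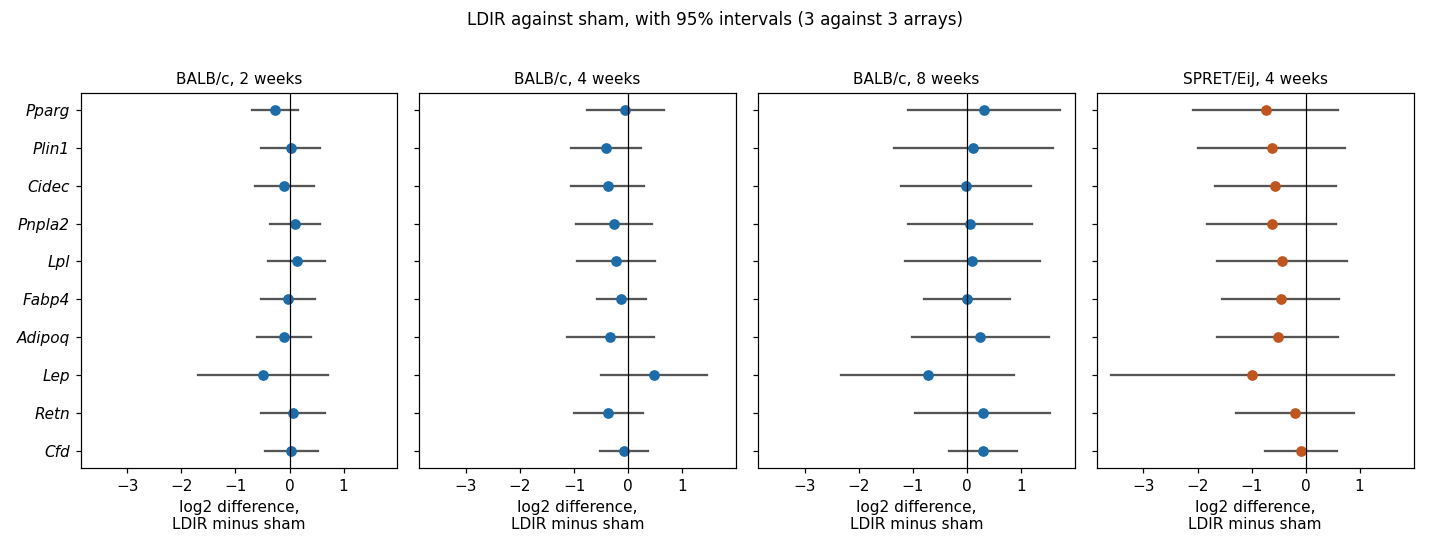
Difference in log2 level between LDIR and sham (x axis) for each member (y axis), with 1 panel for each BALB/c time and 1 for SPRET/EiJ; points are differences of group means of 3 arrays each and lines are 95% intervals from limma. Every line crosses 0, and those at 8 weeks and in SPRET/EiJ, where 2 and 1 of the 6 arrays were high in lymphocyte markers, are wider than those at 2 weeks.

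Time was compared among BALB/c sham mice. Between 4 and 8 weeks 7 of the 10 members fell, namely Retn, Pparg, Plin1, Cfd, Adipoq, Fabp4 and Cidec, where 7.98% of all probes were called lower and 13.7% in either direction. The median of the 10 differences was -0.90, against 0.07 over all probes. The unadjusted p-values of the 7 lay between 0.00334 and 0.0497, and none passed the adjustment over all probes, the smallest adjusted p being 0.151 for Cfd by limma. Over all probes limma called 0 at an adjusted p under 0.05 and 7864 at an unadjusted p under 0.05.

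Cfd was at 10.12, 10.22 and 10.01 at 4 weeks and at 8.98, 9.26 and 9.12 at 8 weeks. The groups lay clearly apart, and Cfd fell by 1.00 on the log2 scale (standard error 0.21, adjusted p = 0.151 by limma). Fabp4 was at 9.98, 10.13 and 10.03 at 4 weeks and at 8.99, 9.26 and 9.23 at 8 weeks, again clearly apart, with a difference of -0.89 (standard error 0.21, adjusted p = 0.174 by limma). Cfd and Fabp4 varied little within each group.

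In the other members that fell, replicate A at 8 weeks, high in lymphocyte markers, lay well below replicates B and C. Pparg was at 5.50, 5.71 and 5.45 at 4 weeks and at 3.61, 4.76 and 4.97 at 8 weeks, a difference of -1.11 (standard error 0.40, adjusted p = 0.302 by limma). Retn was at 8.87, 9.22 and 8.35 and then at 7.01, 8.02 and 7.82, a difference of -1.19 (standard error 0.38, adjusted p = 0.253 by limma). Both genes had no overlap between the times. Plin1 went from 6.30, 6.40 and 5.90 to 4.40, 5.43 and 5.66, a difference of -1.03 (standard error 0.39, adjusted p = 0.318 by limma), and Adipoq, whose levels are given above, differed by -0.91 (standard error 0.37, adjusted p = 0.353). Cidec differed by -0.87 (standard error 0.31, adjusted p = 0.294 by limma) with its brighter probe and by -0.15 (standard error 0.44, adjusted p = 0.927) with its dimmer one, so its call held for 1 of its 2 probes.

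The other 3 members did not pass. Lpl differed by -0.86 (standard error 0.39, adjusted p = 0.405 by limma), with no overlap between the groups, and Pnpla2 by -0.42 (standard error 0.32, adjusted p = 0.645). Lep was at 2.08, 1.00 and 1.52 at 4 weeks and at 0.73, 2.36 and 2.46 at 8 weeks, which overlapped, and its difference was 0.32 (standard error 0.56, adjusted p = 0.857 by limma). Lep was thus the member that was not lower in the mean.

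Without 8-week sham replicate A, 6 of the 10 members passed, all lower, at a median of -0.64, and Adipoq no longer did (-0.56, standard error 0.24, adjusted p = 0.244 by limma). Of all probes 19.5% then passed in either direction, and their median was -0.18. After quantile normalization 3 members passed (Plin1, Retn and Pparg), and Fabp4 and Cfd, at -0.15 and -0.32, did not. Slide 2 held all 3 of the 8-week sham arrays but 1 of the 4-week ones, replicate C. Against that array alone, 9 of the 10 members were lower at 8 weeks, at a median of -0.66. This 8-week mean included replicate A, high in lymphocyte markers. Replicates B and C were each below that array except for Lep and for Pnpla2, which was at 7.39 on it and at 7.53 and 7.61 in B and C. With slide as a block over all 24 arrays only Cfd passed, at -0.89. Without 4-week replicate A, or without replicate B, 2 members passed, Fabp4 and Cfd.

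Other cell types moved in the same comparison, where 5.73% of all probes passed as higher and 7.98% as lower. Of 8 skeletal muscle markers 7 rose, among them Ckm, muscle creatine kinase, by 5.19 (standard error 1.29, adjusted p = 0.181 by limma) and Myh4, a myosin of fast fibres, by 5.83 (standard error 1.92, adjusted p = 0.268). At 2 weeks the mean of the muscle markers was 3.39 in sham replicate C, where 2 of the 10 members were below the mean of their group, and 2.71 in LDIR replicate A, where all 10 were. Of 9 brown adipocyte genes 6 fell, at a median of -2.40, with Elovl3 at -2.86 (standard error 0.65, adjusted p = 0.161 by limma) and Cox8b, a mitochondrial subunit, at -2.57 (standard error 0.31, adjusted p = 0.0849). Of 7 macrophage markers 2 rose, at a median of 0.80, Csf1r, a growth factor receptor, by 0.98 (standard error 0.34, adjusted p = 0.285 by limma) and Cd68 by 0.90 (standard error 0.24, adjusted p = 0.202). Without 8-week sham replicate A 6 muscle markers rose and 6 brown adipocyte genes fell, at medians of 4.15 and -1.48, and 5 of 12 epithelial markers rose, at a median of 0.98, and 1 of 7 macrophage markers rose, at a median of 0.85. The part of these cells in the fall of the white adipocyte genes was not tested.

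Genes of related functions were counted in the same comparison. Of 16 genes of fatty acid uptake and triglyceride synthesis 5 fell, at a median of -0.72, among them Agpat2, an acyltransferase of triglyceride synthesis (-1.31, standard error 0.45, adjusted p = 0.279 by limma), and Acsl1, which activates fatty acids (-1.22, standard error 0.40, adjusted p = 0.27). Of 14 genes of the lipid droplet and lipolysis 4 fell and 1 rose, at a median of -0.64. The largest fall was that of Adrb3 (-1.73, standard error 0.34, adjusted p = 0.135 by limma), and the 1 that rose was Fitm1 (3.45, standard error 1.11, adjusted p = 0.259), a droplet protein known from skeletal muscle that was well above background on 1 of the 3 arrays at 4 weeks. Of 14 adipogenic transcription factors 3 fell and 1 rose, at a median of -0.48, with Srebf1, a lipogenic factor, at -1.28 (standard error 0.49, adjusted p = 0.327 by limma) and Cebpd at 1.52 (standard error 0.33, adjusted p = 0.152). Of 14 adipokines and receptors 4 fell and 1 rose, at a median of 0.04. Without 8-week sham replicate A 3 genes of fatty acid uptake and triglyceride synthesis, 4 of the lipid droplet and lipolysis, 2 adipogenic factors and 3 adipokines and receptors fell, and 0, 0, 2 and 3 rose.

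Between 2 and 4 weeks 1 of the 10 members passed among sham mice, where 3.04% of all probes did. Lep was at 2.38, 2.91 and 2.02 at 2 weeks and at 2.08, 1.00 and 1.52 at 4 weeks, which overlapped, a difference of -0.90 (standard error 0.35, adjusted p = 0.984 by limma). It no longer passed when any 1 of 2-week replicates A and B or 4-week replicates B and C was left out. The other members differed by -0.37 (Pparg) to 0.21 (Retn), and the median was -0.10.

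Among LDIR mice, compared between 4 and 8 weeks after the data were seen, 2 of the 10 members passed, both lower, where 20.9% of all probes passed and 16.8% were lower. They were Fabp4 (-0.76, standard error 0.31, adjusted p = 0.21 by limma) and Cfd (-0.62, standard error 0.25, adjusted p = 0.2). Fabp4 went from 9.63, 9.95 and 10.18 to 9.40, 8.56 and 9.52, and Cfd from 9.78, 10.05 and 10.28 to 9.46, 9.08 and 9.71, neither with overlap. All 10 members were lower at 8 weeks, at a median of -0.54, against -0.21 over all probes. Without LDIR replicate B at 8 weeks none passed, 7 were lower and 3 higher, and the median was -0.09. On slide 2, which held all 3 LDIR arrays at 4 weeks and replicate A at 8 weeks, this 1 array was lower than the 4-week mean for 5 members and higher for 3, at a median of -0.01 and a range of -0.58 to 0.31, with no test. The fall between 4 and 8 weeks did not differ between sham and LDIR mice past the thresholds for any member (0 of 10, against 4.35% of all probes), so a fall in sham mice alone is not shown. This difference, LDIR minus sham, was above 0 for 9 members, at a median of 0.36 against -0.21 over all probes. On the arrays without high lymphocyte markers 9 were also above 0, at a median of 0.51 against -0.04. No member then passed, while 6% of all probes did. The largest was that of Lep, the 1 below 0 (-1.31, standard error 0.63, adjusted p = 0.825 by limma), and the next that of Retn (0.84, standard error 0.37, adjusted p = 0.807).

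**Figure D4:**
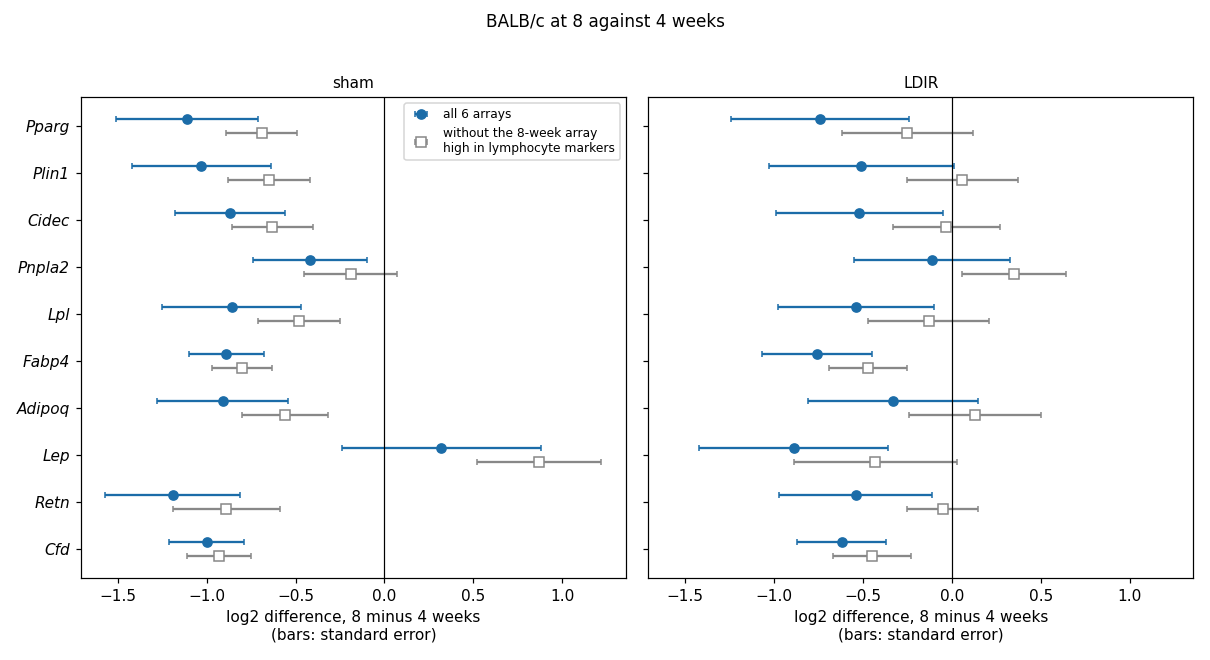
Difference in log2 level between 8 and 4 weeks in BALB/c mice (x axis) for each member (y axis), in sham (left) and LDIR mice (right); circles use all 6 arrays, squares leave out the 8-week array high in lymphocyte markers, and bars are standard errors. In sham mice 9 members lie below 0 either way, while in LDIR mice the squares lie closer to 0 than the circles for 9 members, and that of Pnpla2 lies at 0.35.

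The levels of the members in all 8 groups showed where each was lowest and highest. The lowest group mean was that of BALB/c 8-week sham mice for 6 members, of BALB/c 8-week LDIR mice for Lep and Cidec and of SPRET/EiJ LDIR mice for Plin1, and for Fabp4 both 8-week BALB/c groups had the same lowest mean, 9.16. Pparg had means of 5.93, 5.56 and 4.44 in sham BALB/c at 2, 4 and 8 weeks and of 5.52 in sham SPRET/EiJ. The first 2 of these groups did not overlap but did not differ past the thresholds (-0.37, standard error 0.17, adjusted p = 0.984 by limma), and SPRET/EiJ overlapped with BALB/c at 4 weeks. Of the 10 members, 3 had their highest mean in sham SPRET/EiJ, namely Cidec, Lep and Pnpla2.

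The spread between mice of 1 group was set beside that of other genes, with and without the 3 arrays high in lymphocyte markers. Over all 24 arrays the pooled SD within groups was highest for Lep, where it exceeded that of 98.8% of the 29395 probes above background throughout, whose median SD was 0.31. It was 0.65 for Plin1, 0.63 for Pparg, 0.57 for Lpl, 0.56 for Adipoq, 0.54 for Pnpla2 and Retn, 0.53 for Cidec and 0.41 for Fabp4. Cfd, at 0.25, was the member with a spread below that median. Without the 3 arrays the SD was 0.86 for Lep, 0.44 for Plin1, 0.34 for Adipoq, 0.32 for Pparg and Lpl, 0.31 for Retn, 0.29 for Cidec, 0.28 for Pnpla2 and 0.19 for Fabp4 and Cfd, against a median of 0.24 over 30064 probes above background on those 21 arrays. Fabp4 and Cfd then lay below that median, above 27.8% and 29.1% of those probes, and the other 8 members lay above it, from 62.2% for Pnpla2 to 99.2% for Lep.

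These deviations were shared. Across the 24 arrays, the correlation of the deviations from the group means was 0.65 to 0.98 over the 36 pairs of members other than Lep, with a median of 0.89. Lep had correlations of 0.32 to 0.83 with the other 9, with a median of 0.70. All pairs share the same arrays and the same scaling, and the correlations were lower without the 3 arrays high in lymphocyte markers: over the other 21 the medians were 0.65 and 0.32, and the ranges 0.10 to 0.93 and -0.33 to 0.65. The mean deviation of the 10 members was -0.60, -0.85 and -1.12 on the 3 arrays, whose lymphocyte markers deviated by 3.45, 3.54 and 3.32. Among the other arrays the lowest mean deviation was in BALB/c 4-week LDIR replicate A, where all 10 members were below the group mean, by -0.48 on average, and lymphocyte markers deviated by -0.07.

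**Figure D5:**
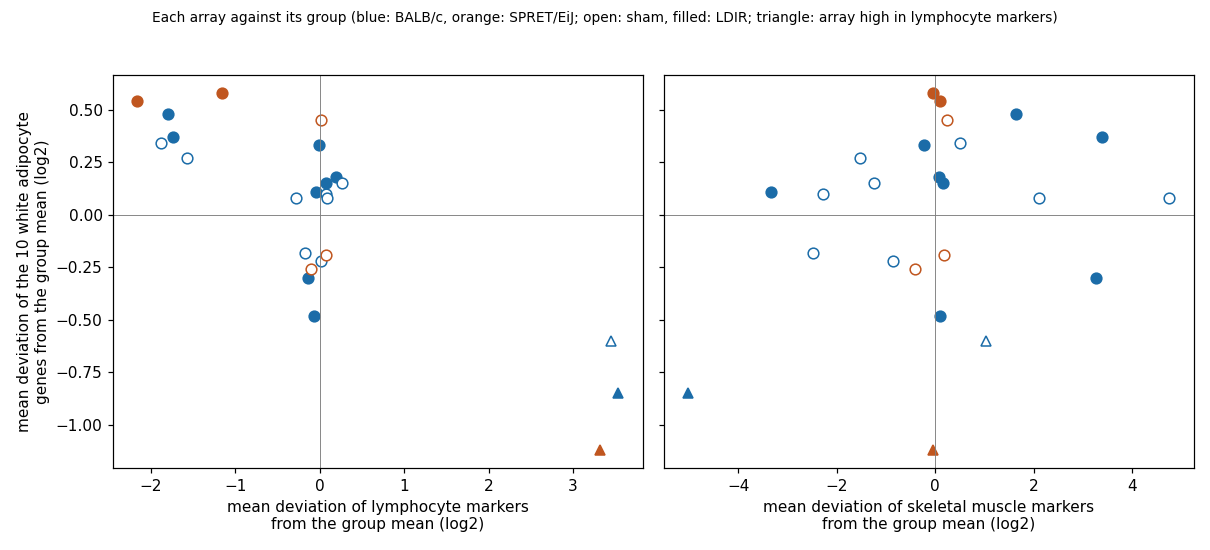
Mean deviation of the 10 white adipocyte genes from the mean of their group (y axis, log2) against that of 10 lymphocyte markers (left) and 8 skeletal muscle markers (right, x axes, log2); each point is 1 of the 24 arrays. The 3 triangles, arrays high in lymphocyte markers, lie at -0.60, -0.85 and -1.12, below every other array, while arrays with high or low muscle markers lie on both sides of 0.

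Adipoq was set against Pparg, its transcriptional regulator, Lep, another hormone of fat, and Krt18, a keratin of luminal epithelium, 3 relations in all. Over the 18 BALB/c arrays Adipoq rose with Pparg (Pearson's r = 0.95, permutation p = 1e-05, the smallest the permutations can give, adjusted p = 3e-05; Spearman's rho = 0.89, permutation p = 1e-05). Without the 2 arrays farthest from the median Adipoq level, which were the BALB/c arrays high in lymphocyte markers, r was 0.84, and within slides 1 and 2 it was 0.63 and 0.96. With Lep, r was 0.59 (permutation p = 0.0091, adjusted p = 0.014) and rho 0.40 (permutation p = 0.1, adjusted p = 0.15). Without the same 2 arrays r was 0.18, so this relation rested on them, and within slides 1 and 2 it was 0.11 and 0.80. With Krt18, r was 0.05 (permutation p = 0.83) and rho -0.19 (permutation p = 0.44). Without the 2 arrays r was -0.61 (permutation p = 0.012, adjusted p = 0.018, n = 16) and rho -0.54 (permutation p = 0.033, adjusted p = 0.05), and within slides 1 and 2, over all their BALB/c arrays, r was -0.67 and 0.14. The permutations took no account of group, so differences between times and treatments enter these values. For deviations from the group means in BALB/c, the 2 arrays included, r was 0.94 with Pparg, 0.67 with Lep and 0.11 with Krt18. In the 6 SPRET/EiJ arrays r was 0.94 with Lep (exact permutation p = 0.00139; rho 1, exact permutation p = 0.00278), 0.91 with Pparg (exact permutation p = 0.0556; rho 0.49, exact permutation p = 0.356) and 0.10 with Krt18 (exact permutation p = 0.892; rho -0.43, exact permutation p = 0.419). These include replicate A of the LDIR mice, high in lymphocyte markers. The 3 relations were not recomputed on the 5 arrays left without it, which are few for a correlation.

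Among 19692 other genes measured on the arrays, those whose levels over the 18 BALB/c arrays were most like the mean of the 10 members, each at r = 0.99, were Fgfrl1, Gstz1, Amy1, Bche, Bckdhb, Mgll, Hibch, TC1733495 (a transcript with no gene symbol in the files), Cpeb3 and Mccc1. Mgll encodes the lipase that completes triglyceride breakdown. Bckdhb, Hibch and Mccc1 encode mitochondrial enzymes of branched-chain amino acid breakdown, Gstz1 an enzyme of tyrosine breakdown, Amy1 an amylase and Bche butyrylcholinesterase. These correlations describe arrays that share their scaling and include the 2 BALB/c arrays high in lymphocyte markers. In the 6 SPRET/EiJ arrays, which did not choose them, the correlations with the mean of the members were 0.79 (Mccc1) to 0.99, but without the array high in lymphocyte markers they were -0.75 (Mccc1), -0.35 (Hibch) and 0.30 (Bche) over the 5 arrays left, and 0.89 to 0.96 for the other 7 genes. Between sham mice of the strains these genes differed by -1.17 (Mgll) to 2.85 (Bche).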

How the data were processed

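Each mouse's RNA was hybridised in 1 colour (Cy3) to an Agilent SurePrint G3 array, 8 arrays on each of 3 slides. Per the file headers, the authors deposited intensity values that the scanner software had background-subtracted and detrended. The authors also deposited log2 values normalized to the 75th percentile, whose median over arrays is 0 for each probe, used as an alternative (column medians -0.218 to 0.331); 99.741% lay within 0.01 of the values used here after centring. Of 59305 spots that are not controls, 3777 outlier spots over 24 arrays were left out, and 0 were saturated. Intensity was put on the log2 scale, spots of a probe averaged and the array's 75th percentile subtracted. The share of probes well above background was 57.1% to 72.6% per array, and 3 arrays in each group limit the precision. The lowest share was that of SPRET/EiJ LDIR replicate C.

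Each comparison was fitted to its own arrays with limma 3.58.1 in R 4.3.3, with Benjamini-Hochberg adjustment over all probes, at the thresholds of the methods. Figures were drawn with matplotlib 3.10.9. Where a gene had several probes, the brightest one on average stands for it. Overlap of groups, or its lack, is a description, with no share over all probes beside it except where given. Members are given in each comparison by value or range, with counts for the related fat lists, up to 2 of the largest changes past the thresholds in a list, and the 10 most similar genes; not every list is given in every comparison. Results were recomputed with each array left out, probe means, a single fit to all arrays, slide or replicate number as a block, the methods' t-test, probes above background alone, no removal of outlier spots, the log2 values of the authors, quantile normalization and normexp (offset 50). Added after seeing the data were slide as a random block, values within slide 2, LDIR mice at 8 against 4 weeks, the test of probe pairs, and leaving out the 3 arrays high in lymphocyte markers. The members and lists were chosen with earlier results of these data known.

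Replicate letters are shared between groups. Over 29319 probes, deviations of arrays of the same letter correlated at 0.167, 0.481 and 0.171 for LDIR and sham at 2 weeks, which counts as pairing on these values alone, and not all above 0.1 in other comparisons. The procedure was tested on simulated data. Labels do not give cage or litter. The values of 1 gene of the adipokine list are not reported here.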

Additional observations from a re-analysis of the deposited data

How the results depend on the processing

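Over all repeats of the counts of members past the thresholds and of the relations of Adipoq, 199 stayed within 1.5 times or on the same side, 36 counts moved further, 1 relation lost its call and 1 turned. Plin1, the 1 member between strains, passed with each array left out in turn, but 0 members passed with the methods' t-test and 0 with slide as a block over all 24 arrays, in sham and LDIR mice alike. Lep, the 1 member between 2 and 4 weeks, was lost (0 members) after quantile normalization, with the methods' t-test, with the replicate block, with slide as a block and with all 24 arrays in one fit. Between 4 and 8 weeks in sham mice, in place of 7 members, 3 passed after quantile normalization, 4 with the methods' t-test, 4 with the replicate block, 1 with slide as a block and 4 with all 24 arrays in one fit. In LDIR mice, in place of 2, 1 passed with normexp and 0 after quantile normalization, with the methods' t-test, with the replicate block, with slide as a block and without 8-week replicate B, which was high in lymphocyte markers. The replicate block changed no other count, including LDIR at 2 weeks, where letters paired (0 members with and without it).

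With each array left out in turn, 0 to 1 members passed for LDIR at 2 weeks (Lep without LDIR replicate B), at 4 weeks (Retn without sham replicate C) and in SPRET/EiJ (Pparg without LDIR replicate B). The range was 0 to 1 between 2 and 4 weeks, 2 to 8 between 4 and 8 weeks in sham and 0 to 2 in LDIR mice, where 4-week replicate B, 4-week replicate C or 8-week replicate B left 0 and 8-week replicate A left 1. For the difference of that fall between sham and LDIR mice it was 0 to 1 (Lep without 8-week sham replicate A, Retn without 8-week LDIR replicate B). Without the 2 BALB/c arrays high in lymphocyte markers, r of Adipoq turned from 0.05 to -0.61 with Krt18 and fell from 0.59 to 0.18 with Lep (adjusted permutation p = 0.5). Where not given, the cause was not tested. There were 0 saturated spots and every member was above background. Whether signal limited the brightest members in another way was not tested, and 3 arrays in each group limit what could be detected.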
